A study of Mus musculus with 9 samples.

Results

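The 10 genes of membrane phosphoinositide turnover and endocytosis described here were followed through AGO immunoprecipitates of mouse T cells. They are the synaptojanins Synj1 and Synj2, the inositol 5-phosphatases Ocrl, Inpp5b, Inpp5a, Inpp5e and Inppl1, the Sac phosphatase Sacm1l, and the endocytic proteins Dnm2 and Picalm. They were chosen by name. Of the 10 genes, 9 were measured among 18193 genes on the arrays, and Picalm was not analysed here. Each measured gene is described by its brightest probe set over all arrays, with its other probe sets beside it. The 9 genes had 26 probe sets in all, and 5 of them had more than 1.

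All arrays came from C57BL/6 T cells kept in culture for 24 h. The 3 allogeneic cultures held BALB/c dendritic cells at 20 T cells per dendritic cell. The 3 anti-CD3/CD28 cultures held 0.1 µg/ml of antibodies to CD3e and CD28 in place of dendritic cells, and the 3 syngeneic cultures held C57BL/6 dendritic cells at the ratio of the allogeneic ones. T cells were then separated from CD11c-bearing cells on magnetic beads, irradiated with ultraviolet light (400 mJ/cm2 first) and lysed, and RNA bound to AGO, the protein that carries miRNAs, was precipitated, amplified and hybridised to Affymetrix arrays. Each culture has biological replicates numbered 1 to 3. The labels name no animal or culture behind a number, so a p-value measures only the spread between these arrays. A signal of AGO-bound RNA depends on the amount of an mRNA as well as on its binding, and input RNA was not analysed here. Fewer cells with a transcript and less RNA per cell cannot be told apart in such pools.

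Phosphoinositides are membrane lipids whose inositol ring carries phosphates at different positions, and each pattern of phosphates recruits its own set of proteins. Clathrin adaptors and dynamin gather where the plasma membrane is rich in the bisphosphate form, and the synaptojanins, which join a Sac domain to a 5-phosphatase domain, strip that lipid from newly cut vesicles so that the coat comes off. In T cells the same lipid is the substrate from which receptor signalling makes soluble inositol trisphosphate, and clathrin-dependent uptake removes receptors from the surface.

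All 10 measured T cell marker genes of 12 listed stood above the array median on each of the 9 arrays, and the label names T cells. Other markers were often above it too, 4 to 5 of 5 for B cells and 8 to 10 of 11 for dendritic cells. For macrophages and monocytes it was 4 to 9 of 11, and for granulocytes 1 to 4 of 5. A place above the median therefore does not tell T cells from other cells. The 9 array medians ran from 4.58 to 5.67 (log2 signal), and a signal near them is treated here as dim. These medians also lay apart by number, at 4.58 to 4.59 in number 1, 5.60 to 5.67 in number 2 and 4.81 to 4.93 in number 3. Signals grouped by replicate number. Over all probe sets, correlations were 0.955 to 0.999 for arrays of the same number. They were 0.82 to 0.88 for arrays of the same culture, and 0.82 to 0.88 also for arrays that shared neither. After the mean of each culture was removed, they were 0.811 to 0.921 over all genes for the 9 same-number pairs. For the 18 pairs of different number and culture they were then -0.597 to -0.165. That removal takes out any grouping by culture and pushes different-number pairs below 0, so it bears on the pairing only. Differences are therefore given within each number, with the test both without and with the number as a block. The signals of 2 cultures within a number were often exactly equal, in 29.1% of comparisons over all genes and in 15 of 81 over the 9 genes described here (18.5%, tolerance 1e-06). A difference of 0 within a number is such an equality and is not read as a measured lack of change. Over all probe sets, at most 0.0022% of values were equal between arrays of different numbers. The part of array processing in the grouping by number was not tested.

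**Figure D1:**
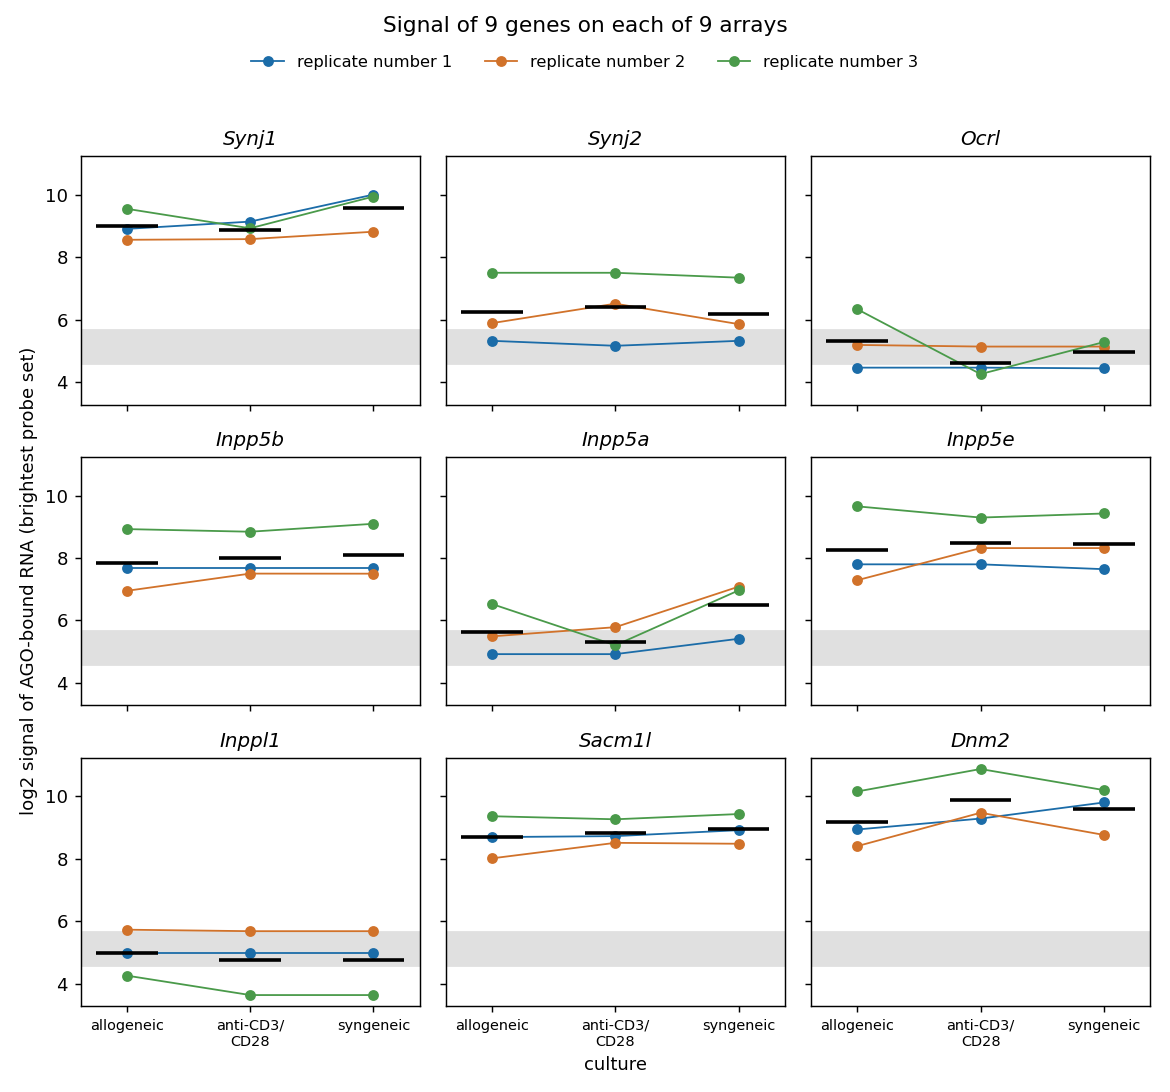
Log2 signal of the brightest probe set of the 9 measured genes (vertical axes) in allogeneic, anti-CD3/CD28 and syngeneic T cells (horizontal axes), with 1 point per array, lines joining arrays of the same replicate number, black bars for culture means (n = 3 each) and a grey band for the range of the 9 array medians. Lines of different numbers mostly lie apart, and Synj1, Inpp5a, Inpp5b and Sacm1l have their highest mean in syngeneic cells.

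Synj1, the synaptojanin best known from the recycling of synaptic vesicles and present in non-neuronal cells too, had lower AGO-bound signal in both stimulated cultures than in syngeneic culture within every replicate number. Its log2 signal was 8.90, 8.56 and 9.55 in allogeneic cells (numbers 1, 2 and 3), 9.14, 8.58 and 8.92 in anti-CD3/CD28 cells, and 10.002, 8.81 and 9.94 in syngeneic cells. The 3 cultures overlapped, because the syngeneic array numbered 2 was lower than the other syngeneic arrays and lay below several stimulated ones of other numbers. Means were 9.002 ± 0.50 in allogeneic, 8.88 ± 0.28 in anti-CD3/CD28 and 9.58 ± 0.67 in syngeneic cells (SD, n = 3 each), and all 9 values were above their array's median.

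The allogeneic minus syngeneic difference of Synj1 was -0.58 ± 0.53 (SE, log2), with -1.10, -0.26 and -0.39 within the 3 numbers. It was not called by limma with Benjamini-Hochberg adjustment over all genes (adjusted p = 1.00), and its 95% interval ran from -1.72 to 0.56. With the replicate block the SE shrank to 0.24, the unadjusted limma p was 0.0535 and the adjusted p was 0.709. The anti-CD3/CD28 minus syngeneic difference was -0.71 ± 0.53 (SE), with -0.87, -0.24 and -1.02 within the numbers. Its limma p with the block was 0.0280 before adjustment and 0.727 after it, with an interval of -1.30 to -0.11 before adjustment. The 2 comparisons share the syngeneic arrays, so they are not separate evidence. Set directly against each other, allogeneic and anti-CD3/CD28 cells differed by 0.12 ± 0.53 (SE, log2), with -0.23, -0.02 and 0.62 within the numbers and an interval of -0.47 to 0.72 with the block. No direction of Synj1 between the 2 kinds of stimulation was shown, and a difference as large as those against syngeneic cells lies inside the unblocked interval of -1.02 to 1.26.

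Synj1 had 3 further probe sets, all dimmer on average. One of them, 1436333_a_at, was also lower than in syngeneic cells, by -0.73 in allogeneic cells (-0.61, -1.58 and 0 within the numbers) and by -0.48 in anti-CD3/CD28 cells (-0.89, -0.46 and -0.07). Its signal lay far apart between numbers, at 4.97, 6.39 and 9.14 in allogeneic, 4.69, 7.51 and 9.07 in anti-CD3/CD28 and 5.58, 7.97 and 9.14 in syngeneic cells. The probe set 1436334_at differed from syngeneic cells by 0.06 in allogeneic and 0.02 in anti-CD3/CD28 cells, and 1439997_at by -0.08 in allogeneic and -0.24 in anti-CD3/CD28 cells. Over the mean of all 4 probe sets the Synj1 differences were -0.33 in allogeneic and -0.35 in anti-CD3/CD28 cells against syngeneic cells, smaller in size than those of the brightest probe set.

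**Figure D2:**
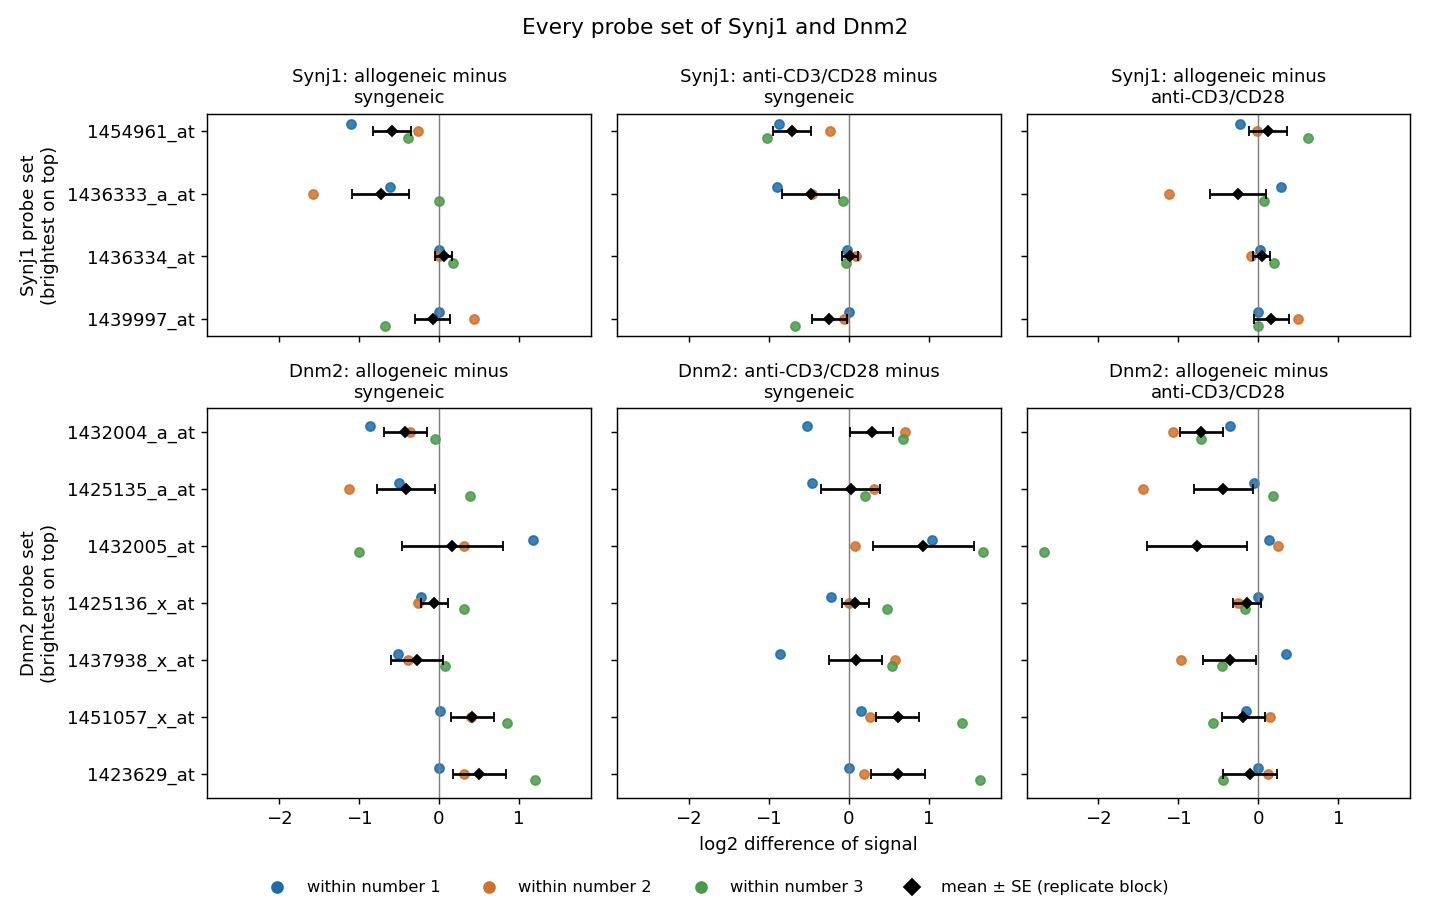
Log2 differences (horizontal axis) of each of the 4 Synj1 and 7 Dnm2 probe sets (vertical axis) for the 3 comparisons, allogeneic or anti-CD3/CD28 cells over syngeneic cells and allogeneic over anti-CD3/CD28 cells, with 1 point per replicate number and the mean. The brightest Synj1 probe set is below 0 in all 3 numbers in both comparisons with syngeneic cells, and the 7 Dnm2 means are all below 0 in allogeneic against anti-CD3/CD28 cells.

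Synj2, the second synaptojanin, which has the same pair of phosphatase domains, varied far more between replicate numbers than between cultures. Its log2 signal was 5.32, 5.89 and 7.50 in allogeneic, 5.16, 6.51 and 7.50 in anti-CD3/CD28 and 5.32, 5.85 and 7.34 in syngeneic cells. Number 3 was the highest in each culture and the cultures overlapped throughout. The differences against syngeneic cells were 0.06 ± 0.83 in allogeneic and 0.22 ± 0.83 in anti-CD3/CD28 cells (SE, log2), with intervals under the block of -0.41 to 0.53 in allogeneic and -0.25 to 0.69 in anti-CD3/CD28 cells. The 6 probe sets of Synj2 disagreed in sign, since 2 of 6 had the sign of the brightest one in allogeneic against syngeneic cells, 5 of 6 in anti-CD3/CD28 against syngeneic cells and 4 of 6 in allogeneic against anti-CD3/CD28 cells.

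Ocrl, the phosphatase lost in Lowe syndrome in humans, and Inpp5b, its closest relative, bind clathrin-coat or endosomal partners and remove the 5-phosphate of the plasma membrane lipid. Ocrl was dim, above the array median on only 2 of 9 arrays, at 4.46, 5.19 and 6.33 in allogeneic, 4.46, 5.13 and 4.25 in anti-CD3/CD28 and 4.44, 5.13 and 5.28 in syngeneic cells. The allogeneic array numbered 3 stood alone at the top. The allogeneic minus anti-CD3/CD28 difference of 0.71 ± 0.61 (SE, log2, or 0.42 with the block) came almost wholly from that number, with 0, 0.05 and 2.08 within the 3 numbers. The other 2 probe sets of Ocrl, dimmer still, had the opposite sign there: 1438284_at differed by -0.25 (0, -0.33 and -0.41 within the numbers; limma p with the block 0.0355 before and 0.910 after adjustment over all probe sets) and 1457313_at by -0.10. Over the mean of all 3 probe sets the Ocrl difference was 0.12. Against syngeneic cells the brightest Ocrl probe set differed by 0.38 ± 0.61 in allogeneic cells (SE, log2), with 0.02, 0.05 and 1.05 within the numbers. In anti-CD3/CD28 cells it differed by -0.33 ± 0.61 (SE), with 0.02, 0 and -1.03 within the numbers. Inpp5b was bright, at 7.69, 6.95 and 8.93 in allogeneic, 7.69, 7.50 and 8.84 in anti-CD3/CD28 and 7.69, 7.50 and 9.10 in syngeneic cells. It differed from syngeneic cells by -0.24 ± 0.71 in allogeneic and by -0.08 ± 0.71 in anti-CD3/CD28 cells (SE, log2). With the block the SE was 0.17. The allogeneic difference came mainly from number 2, where it was -0.55.

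Inpp5a, which removes the 5-phosphate of soluble inositol trisphosphate and so ends its calcium signal, was the other gene with lower signal than in syngeneic cells in every number of both comparisons. Its log2 signal was 4.92, 5.49 and 6.53 in allogeneic, 4.92, 5.78 and 5.21 in anti-CD3/CD28 and 5.41, 7.08 and 6.96 in syngeneic cells. The syngeneic array numbered 1 lay below the highest stimulated arrays, so the cultures overlapped. Means were 5.65 ± 0.81 in allogeneic, 5.30 ± 0.44 in anti-CD3/CD28 and 6.49 ± 0.93 in syngeneic cells (SD, n = 3 each). In stimulated cells the gene stood close to the range of the array medians, which limits how well a size can be read.

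The anti-CD3/CD28 minus syngeneic difference of Inpp5a, -1.18 ± 0.68 (SE, log2), was the largest in size among the 9 genes in the 3 comparisons, with -0.49, -1.30 and -1.76 within the numbers. The limma p with the replicate block was 0.0215 before adjustment and 0.727 after it, with an interval of -2.11 to -0.25, and the adjusted p without the block was 1.00. In allogeneic against syngeneic cells it was -0.84 ± 0.68 (SE), with -0.49, -1.59 and -0.44 within the numbers and a limma p with the block of 0.0678 (adjusted p = 0.709). Allogeneic and anti-CD3/CD28 cells had the same Inpp5a value in number 1 and went opposite ways in numbers 2 and 3 (-0.29 and 1.32). Inpp5a had a single probe set, so no second one could be set beside it.

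Inpp5e, the 5-phosphatase of the primary cilium, had log2 signals of 7.80, 7.29 and 9.65 in allogeneic, 7.80, 8.32 and 9.30 in anti-CD3/CD28 and 7.64, 8.32 and 9.43 in syngeneic cells. The allogeneic array numbered 2 was the only one to leave its number by more than 1 log2 unit, and the differences within numbers had mixed signs in each comparison. Against syngeneic cells they averaged -0.21 ± 0.74 in allogeneic and 0.01 ± 0.74 in anti-CD3/CD28 cells (SE, log2). With the block the SE was 0.31. The second Inpp5e probe set, 1423229_at, was higher than in syngeneic cells by 0.36 in both allogeneic (0, 0.55 and 0.54 within the numbers) and anti-CD3/CD28 cells (-0.07, 0.16 and 0.99), so the probe sets had opposite signs in the allogeneic comparison. Inppl1 encodes SHIP2, the broadly expressed relative of the blood cell phosphatase SHIP1. It was dim, at 4.99, 5.73 and 4.26 in allogeneic, 4.99, 5.69 and 3.64 in anti-CD3/CD28 and 4.99, 5.69 and 3.64 in syngeneic cells. All 3 anti-CD3/CD28 values of Inppl1 were exactly those of the syngeneic arrays of the same number.

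Sacm1l, the Sac phosphatase that clears phosphatidylinositol 4-phosphate at the endoplasmic reticulum, had log2 signals of 8.70, 8.02 and 9.37 in allogeneic, 8.73, 8.51 and 9.27 in anti-CD3/CD28 and 8.92, 8.49 and 9.44 in syngeneic cells. It was lower in allogeneic than in syngeneic cells in all 3 numbers, by small steps of -0.22, -0.47 and -0.07. The mean difference of -0.25 had an SE of 0.55, or 0.15 with the block, where its interval was -0.62 to 0.12. The anti-CD3/CD28 minus syngeneic difference of Sacm1l was -0.11 ± 0.55 (SE), lower in 2 of 3 numbers.

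Dnm2, the dynamin of most cells, is the GTPase that cuts coated vesicles from the membrane. It differed most between the 2 kinds of stimulation. Its log2 signal was 8.94, 8.41 and 10.16 in allogeneic, 9.29, 9.48 and 10.88 in anti-CD3/CD28 and 9.81, 8.77 and 10.20 in syngeneic cells. Within every number the allogeneic array was below the anti-CD3/CD28 one, while the cultures as groups overlapped. The allogeneic minus anti-CD3/CD28 difference was -0.71 ± 0.63 (SE, log2), with -0.35, -1.07 and -0.72 within the numbers. Its limma p with the block was 0.0429 before adjustment and 0.928 after it, and the adjusted p without the block was 1.00. Against syngeneic cells Dnm2 was lower in allogeneic cells in all 3 numbers (-0.86, -0.36 and -0.04) and had mixed signs in anti-CD3/CD28 cells (-0.52, 0.71 and 0.68).

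The other 6 probe sets of Dnm2 lay on the same side as the brightest one in allogeneic against anti-CD3/CD28 cells, since 7 of 7 mean differences were below 0, from -0.77 to -0.11. None of these 6 was lower in all 3 numbers, as the brightest one was. The most negative, 1432005_at, owed its mean to number 3 alone, with 0.14, 0.24 and -2.68 within the numbers. In anti-CD3/CD28 against syngeneic cells 7 of 7 were above 0, from 0.02 to 0.93, and in allogeneic against syngeneic cells 4 of 7 were below 0. Over the mean of all 7 probe sets the Dnm2 difference was -0.39 in allogeneic against anti-CD3/CD28 cells and -0.01 in allogeneic against syngeneic cells, smaller in size than for the brightest probe set, and 0.38 in anti-CD3/CD28 against syngeneic cells. Probe sets of 1 gene share the same RNA and the same arrays, and their directions are not independent. Over all probe sets on the arrays, 39.3% were lower in allogeneic than in anti-CD3/CD28 cells, and 46.0% were lower in anti-CD3/CD28 than in syngeneic cells.

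**Figure D3:**
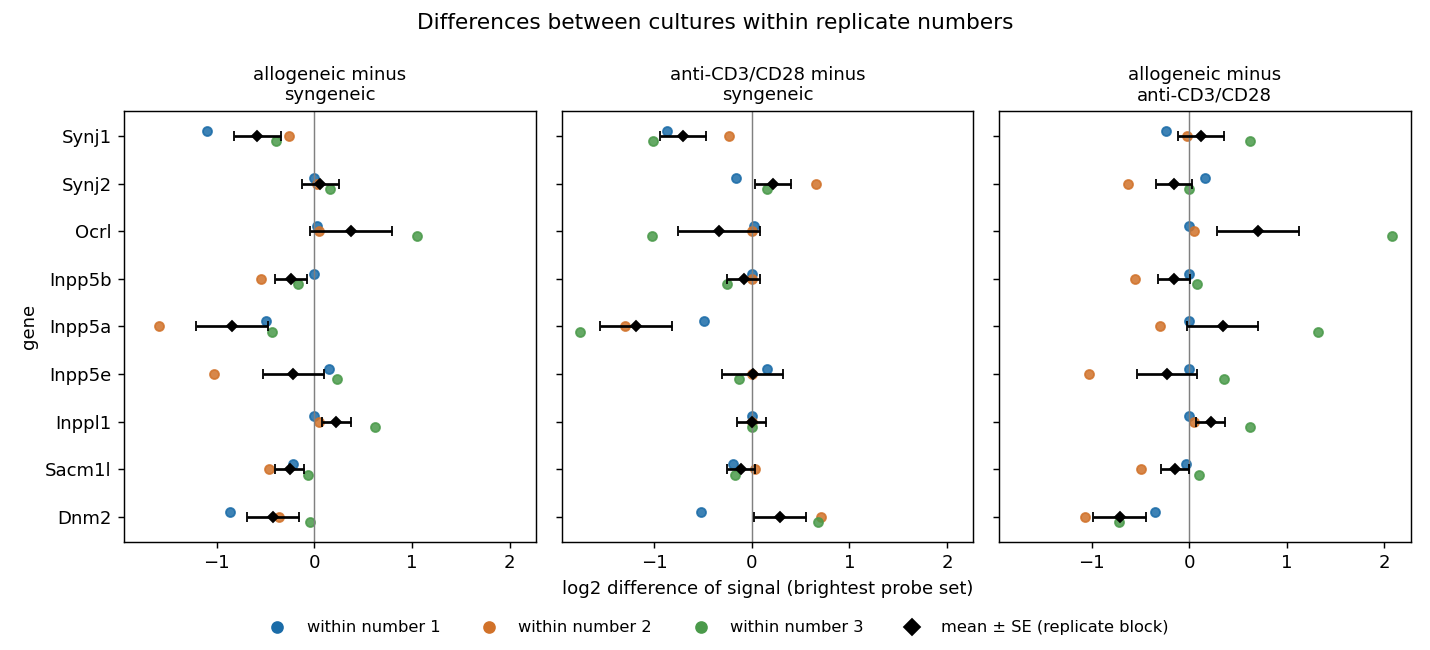
Log2 difference (horizontal axes) of the 9 measured genes (vertical axis) for the 3 comparisons, allogeneic or anti-CD3/CD28 cells over syngeneic cells and allogeneic over anti-CD3/CD28 cells, with 1 point per replicate number and a diamond for the mean ± SE of the fit with the replicate block. Synj1 and Inpp5a lie below 0 in every number of both comparisons with syngeneic cells, and Dnm2 does so in allogeneic against anti-CD3/CD28 cells.

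Taken as a group, none of the 9 genes was called in any comparison, and neither was any other gene: 0 of 18193 genes (0%) passed an adjusted p of 0.05 in limma without or with the replicate block. At an unadjusted p under 0.05 with the block, the count was 0 of 9 in allogeneic against syngeneic cells, where 4.53% of all genes did so. It was 2 of 9 in anti-CD3/CD28 against syngeneic cells (Synj1 and Inpp5a), against 6.79% of all genes, and 1 of 9 in allogeneic against anti-CD3/CD28 cells (Dnm2), against 1.13%. Without the block no member had an unadjusted p under 0.05, while 27, 156 and 24 of all genes did in the 3 comparisons.

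Lower signal in all 3 numbers was found for 4 of 9 genes in allogeneic against syngeneic cells (Synj1, Inpp5a, Sacm1l and Dnm2), where 7.96% of all genes had it. It was found for 2 of 9 in anti-CD3/CD28 against syngeneic cells (Synj1 and Inpp5a), against 9.15% of all genes, and for 1 of 9 in allogeneic against anti-CD3/CD28 cells (Dnm2), against 2.58%. Higher signal in all 3 numbers was found for 1 of 9 in allogeneic against syngeneic cells (Ocrl), where 1326 of 18193 genes had it. In the other 2 comparisons it was found for 0 of 9, against 1419 and 799 of all genes. In no comparison were the groups of a member free of overlap, which 0.643%, 1.93% and 0.324% of all genes were. The median difference of the 9 genes was -0.24, -0.08 and -0.14 in the 3 comparisons, beside 0.03, 0.00 and 0.04 over all genes. The genes were named with earlier results of these arrays known, so these shares describe them and test nothing.

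The division of variance between number and culture differed among the 9 genes. For Synj1 the replicate number took 48.8% of the sum of squares over the 9 arrays and the culture 35.3%, and for Inpp5a the shares were 42.3% for the number and 39.2% for the culture. Ocrl had 35.8% for the number and 22.5% for the culture, and Dnm2 74.0% and 15.4%. Over all genes the median was 92.7% for the number and 2.08% for the culture. Synj2, Inpp5b and Inppl1 lay near that pattern, with at least 94.95% for the number. After the mean of each number was removed, the 36 pairs among the 9 genes had correlations of -0.47 to 0.92 with a median of 0.31 over the 9 arrays. Synj1 and Inpp5a had 0.74, Inpp5b had 0.92 with Sacm1l and 0.90 with Inpp5e, and Ocrl and Inppl1 had 0.87. These points share arrays, amplification and normalization, and the values are descriptions.

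After the mean of each replicate number was removed, Synj1 was compared over the 9 arrays with 10762 genes above the array median on at least 5 arrays. The genes that followed it most closely, predicted genes left aside, were Rbm27 (Pearson r = 0.987), Gucd1 (0.983), Foxj3 (0.977), Rflnb (0.976) and Grcc10 (0.975). Before that removal, Rflnb was at 10.29, 10.09 and 10.501 in allogeneic, 10.61, 9.86 and 9.95 in anti-CD3/CD28 and 11.21, 10.12 and 10.86 in syngeneic cells. For Rflnb number 2 was the lowest in each culture, as for Synj1, and the correlation does not count that shared level. Rbm27 had number 1 as the lowest in allogeneic (6.77, 7.52 and 8.75) and anti-CD3/CD28 cells (6.80, 7.63 and 8.10). In syngeneic cells its lowest was number 2 (7.96, 7.76 and 9.22). The r values given are the highest of many, and the 9 points are 3 arrays of each of 3 numbers.

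Macrophage and monocyte marker genes moved in the same direction as Synj1 and Inpp5a. The summed log2 signal of the 11 measured of 12 listed was 56.8 to 67.2 in allogeneic, 51.2 to 65.9 in anti-CD3/CD28 and 73.5 to 84.5 in syngeneic cells, without overlap between stimulated and syngeneic arrays. Above the array median were 4 to 7 of them in allogeneic, 4 to 5 in anti-CD3/CD28 and 7 to 9 in syngeneic cells. The sums of 11 dendritic cell markers were 86.7 to 102.7 in allogeneic, 83.8 to 85.5 in anti-CD3/CD28 and 88.5 to 103.7 in syngeneic cells, which leaves the anti-CD3/CD28 cultures, the ones without dendritic cells, at the low end. The 5 measured B cell markers summed to 33.0 to 41.5 in allogeneic, 31.9 to 45.2 in anti-CD3/CD28 and 35.4 to 42.1 in syngeneic cells. The 5 granulocyte markers summed to 23.6 to 33.5 in allogeneic, 19.7 to 26.4 in anti-CD3/CD28 and 24.0 to 32.5 in syngeneic cells. On this log2 scale no marker is at 0, since the lowest value in the table is 1.57. The part of these cells in the Synj1, Inpp5a and Dnm2 differences was not tested.

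The wider pathway was read from 4 lists of genes around phosphoinositide turnover and endocytosis, of which 84 of 87 genes were measured. None was called, without or with the block. Lower were 50 of 84 in allogeneic and 53 of 84 in anti-CD3/CD28 cells against syngeneic cells, and 31 of 84 in allogeneic against anti-CD3/CD28 cells. Over all genes, 7587, 8592 and 6375 of 18193 were lower in these 3 comparisons, each a smaller share than among the 84. Lower signal in all 3 numbers was found for 11, 12 and 4 of the 84 (13.1%, 14.3% and 4.76%). Over all genes it was found for 7.96%, 9.15% and 2.58%. The lists were chosen with earlier results of these arrays known, so these shares describe them and test nothing. The median differences of the 84 genes were -0.07, -0.06 and 0.05 in these 3 comparisons. An unadjusted p under 0.05 with the block was reached by 3, 5 and 1 of them (3.57%, 5.95% and 1.19%), close to the shares over all genes. By list, the other phosphoinositide phosphatases were lower than in syngeneic cells for 14 of 21 in allogeneic and 13 of 21 in anti-CD3/CD28 cells, and the phosphoinositide kinases for 12 of 19 in allogeneic and 13 of 19 in anti-CD3/CD28 cells. The clathrin coat and adaptors were lower for 15 of 23 in allogeneic and 14 of 23 in anti-CD3/CD28 cells, and the scission, BAR and uncoating proteins for 9 of 21 in allogeneic and 13 of 21 in anti-CD3/CD28 cells. In allogeneic against anti-CD3/CD28 cells the last list had 17 of 21 higher, with a median difference of 0.10 (log2). Over all genes, 10934 of 18193 were higher in that comparison, with a median of 0.04. Dnm2, the scission GTPase described above, was lower there.

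**Figure D4:**
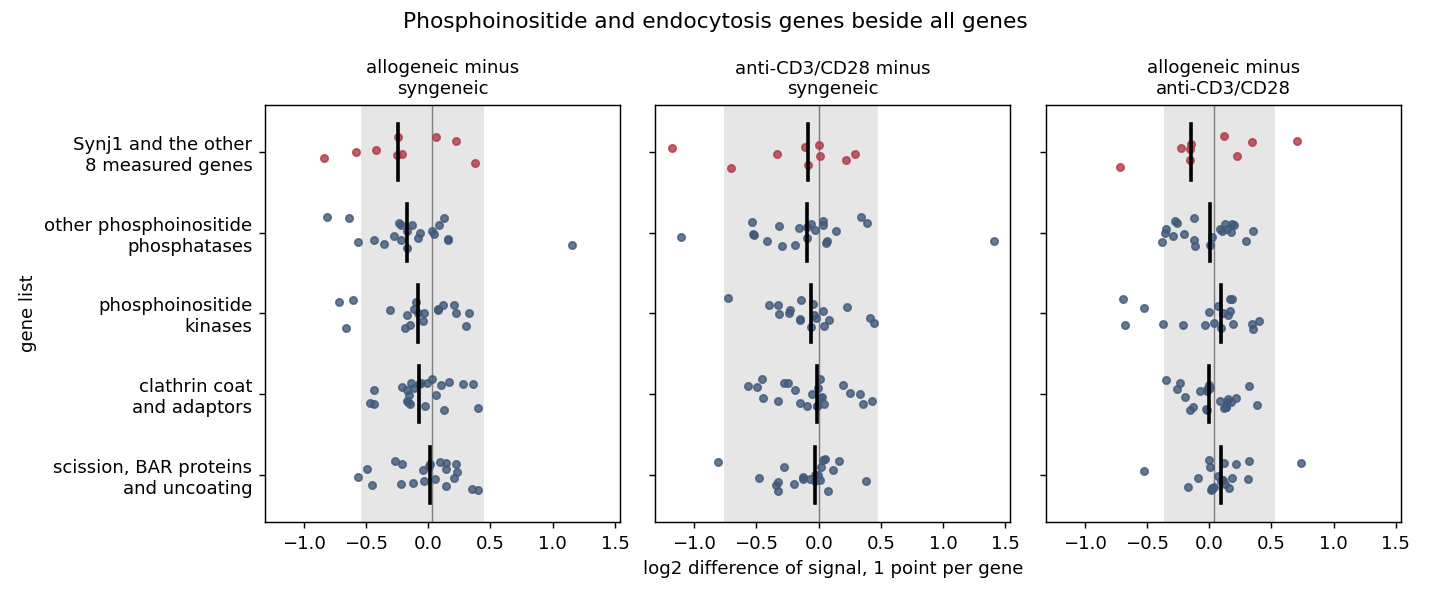
Log2 difference (horizontal axes) of each measured gene in the 4 pathway lists and of the 9 described genes (vertical axis) for the 3 comparisons, allogeneic or anti-CD3/CD28 cells over syngeneic cells and allogeneic over anti-CD3/CD28 cells, with black bars for list medians, a thin line for the median of all genes and a grey band from their 5th to 95th percentile. Most genes of each list lie inside the band, and list medians lie within 0.24 of 0.

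Among the kinases, Pik3r1, the regulatory subunit that carries class I phosphoinositide 3-kinase to activated receptors, was at 9.40, 8.98 and 9.80 in allogeneic, 9.04, 9.21 and 9.72 in anti-CD3/CD28 and 10.02, 10.11 and 10.03 in syngeneic cells. Its stimulated and syngeneic arrays did not overlap. Over all genes, 0.643% were free of overlap in allogeneic and 1.93% in anti-CD3/CD28 against syngeneic cells. Pik3r1 was named for the smallest p of its list in both comparisons, so its separation was partly selected. It differed from syngeneic cells by -0.66 ± 0.45 in allogeneic and by -0.73 ± 0.45 in anti-CD3/CD28 cells (SE, log2), with a limma p under the block of 0.0218 (adjusted p = 0.709) in allogeneic and 0.0147 (adjusted p = 0.710) in anti-CD3/CD28 cells. Among the phosphatases, Mtmr4, a myotubularin of early endosomes, was at 9.03, 8.06 and 9.92 in allogeneic, 9.13, 8.36 and 8.61 in anti-CD3/CD28 and 9.60, 9.35 and 10.49 in syngeneic cells. All anti-CD3/CD28 values of Mtmr4 lay below the syngeneic ones, with a difference of -1.11 ± 0.58 (SE, log2) and a limma p under the block of 0.0245 before and 0.727 after adjustment. Mtmr4, too, was named for the smallest p of its list.

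Mtm1, the founding myotubularin, had the opposite sign, with 1.41 in anti-CD3/CD28 and 1.16 in allogeneic against syngeneic cells. Number 1 gave most of it, with differences of 2.69 and 2.76, and in number 2 the allogeneic array was lower, by -0.58. Snx18, a BAR-domain partner of dynamin, differed from syngeneic cells by -0.81 ± 0.55 in anti-CD3/CD28 cells (SE, log2; limma p under the block 0.0166 before and 0.710 after adjustment), with -0.21, -0.90 and -1.32 within the numbers. Dnajc6, the neuronal auxilin that uncoats clathrin vesicles together with the synaptojanin step, was dim, and its allogeneic minus anti-CD3/CD28 difference was 0.74 (0, 1.18 and 1.05 within the numbers).

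The sequences just before the transcription starts of Synj1, Inpp5a and Dnm2 are shown because these 3 genes had the differences with an unadjusted p under 0.05 in the fit with the block. Each is the 100 bases before the most upstream start that RefSeq gives for the mouse gene (GRCm38.p6), 5′ to 3′ on the gene's own strand. Capitals mark matches, on either strand, to the GC box GGGCGG, the ETS core GGAAG, the NFAT core GGAAA, the partial CRE motif TGACG or the CCAAT box. The ETS and NFAT cores share their first 4 letters. The windows are chr16:91011309-91011408 (minus strand) for Synj1, chr7:139389009-139389108 (plus strand) for Inpp5a and chr9:21424808-21424907 (plus strand) for Dnm2.
Synj1: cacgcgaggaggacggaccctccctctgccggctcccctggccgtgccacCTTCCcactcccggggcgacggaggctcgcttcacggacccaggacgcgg
Inpp5a: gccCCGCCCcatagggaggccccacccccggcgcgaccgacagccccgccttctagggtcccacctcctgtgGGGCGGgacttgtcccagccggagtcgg
Dnm2: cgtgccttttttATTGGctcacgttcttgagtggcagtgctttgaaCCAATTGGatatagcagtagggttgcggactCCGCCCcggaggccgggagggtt

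The Synj1 window was 75% G and C with 1 match to the ETS core, the Inpp5a window 76% with 2 GC boxes, and the Dnm2 window 55% with 1 GC box and 3 CCAAT boxes, 2 of them overlapping on opposite strands. The median over 32851 mouse windows of this length was 55%. All 10 genes had RefSeq starts, with 15 windows in all and a median of 69% G and C. The GC box was in 10 of the 15 windows and in 24.7% of all windows, the ETS core in 8 and in 35.8%, and the NFAT core in 3 and in 26.3%. The partial CRE motif was in 4 and in 10.48%, and the CCAAT box in 2 and in 18.9%. Several genes have more than 1 start, and some of their windows overlap. A match here is a run of letters and not a site, and the arrays hold no measure of binding at these starts.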

How the data were processed

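The authors deposited 1 table of log2 signals, with 45101 probe sets on 9 arrays. They were made by RMA, per the submitters' processing notes, with no version given in the sources used here, and were taken without further normalization. Control probe sets (64), those listed for several genes (932) and those with no gene (9160) were left out. Symbols came from the platform annotation, and 34741 of the 34945 remaining probe sets were matched by gene ID to current symbols. The brightest probe set over all arrays stood for each of 18193 genes. Picalm was not analysed here.

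The 3 comparisons were fitted with limma 3.58.1 (R 4.3.3) (1 mean per culture, all 9 arrays, intensity trend), adjusted by Benjamini-Hochberg over all genes, with a threshold of 0.05. The replicate number was added as a block in an alternative fit. Numbers were taken to pair the arrays because every same-number correlation of deviations from culture means was above 0.1 (0.811 to 0.921). The model was tested on simulated data. The number of arrays limits the precision. The median SE over all genes was 0.639 without the block, where the spread between replicate numbers counts as error, and 0.156 with it. Exactly equal values within a number enter the fit with the block as differences of 0. Their effect on its SE and p-values was not tested.

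The 10 genes, the 4 pathway lists and the 5 marker lists were chosen with earlier results of these arrays known. All 10 genes were to be named in every comparison, together with up to 3 genes per pathway list and comparison with the smallest p; of those a few are described. Alternatives were the block, normalization, a filter on dim probe sets, the choice of probe set, the arrays in the fit and the omission of each array. Promoter windows are from RefSeq. No scanner files were used, so background and saturation per spot were not assessed.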

Additional observations from a re-analysis of the deposited data

How the results depend on the processing

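None of the 9 genes was called under any alternative run, and the replicate block changed no call. The lowest adjusted p among them was 0.144 (Inpp5a, anti-CD3/CD28 minus syngeneic, replicate number as a random block), and Synj1 had 0.231 there. Genes called over all arrays were 0 except with the random block, 1 in allogeneic and 30 in anti-CD3/CD28 against syngeneic cells, and with arrays centred on their medians, 1 in anti-CD3/CD28 against syngeneic cells; the cause was not tested. Inpp5e in anti-CD3/CD28 minus syngeneic cells turned to -0.010 after centring and to -0.065 without the 3 arrays numbered 1, without or with the block. Over the mean of all probe sets, without or with the block, Synj2 turned to -0.060 and Inpp5e to 0.073 in allogeneic minus syngeneic cells. The fits that join the block with the mean over probe sets or with the omission of number 1 were chosen after seeing the data. Without number 1, Synj1 was -0.33 and Inpp5a -1.01 in allogeneic minus syngeneic cells, and -0.63 and -1.53 in anti-CD3/CD28 minus syngeneic cells. Ocrl and Inppl1 have no value under the filter on dim probe sets, which left 10916 genes.

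With 1 array left out, without or with the block, 55 of 486 differences changed sign. Without the block, the ranges of those that did were, in allogeneic minus syngeneic cells, -0.57 to 0.65 for Synj2, -0.127 to 0.81 for Ocrl, -0.78 to 0.26 for Inpp5b, -0.92 to 0.27 for Inpp5e, -0.34 to 0.68 for Inppl1 and -0.59 to 0.085 for Sacm1l. In anti-CD3/CD28 minus syngeneic cells they were -0.34 to 0.83 for Synj2, -0.50 to 0.42 for Inpp5b, -0.40 to 0.49 for Inpp5e, -0.34 to 0.135 for Sacm1l and -0.21 to 0.60 for Dnm2. In allogeneic minus anti-CD3/CD28 cells they were -0.149 to 0.35 for Synj1, -0.79 to 0.40 for Synj2, -0.69 to 0.30 for Inpp5b, -0.098 to 0.70 for Inpp5a, -0.93 to 0.26 for Inpp5e, -0.34 to 0.68 for Inppl1 and -0.48 to 0.195 for Sacm1l.

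With the block and 1 array left out, these values changed sign. In allogeneic minus syngeneic cells they were Inpp5e at 0.190 (without allogeneic array 2), Ocrl at -0.136 (without allogeneic array 3) and Synj2 at -0.039 (without syngeneic array 2). In anti-CD3/CD28 minus syngeneic cells they were Synj2 at -0.0088 and Inpp5e at -0.191 (without anti-CD3/CD28 array 2), Ocrl at 0.180 and Inpp5b at 0.019 (without anti-CD3/CD28 array 3), and Inpp5e at -0.121 and -0.068 (without syngeneic arrays 1 or 3). In allogeneic minus anti-CD3/CD28 cells they were Inpp5b at 0.020 and Inpp5e at 0.182 (without allogeneic array 2), Synj1 at -0.050 and Inpp5a at -0.0032 (without allogeneic array 3), Synj2 at 0.072 (without anti-CD3/CD28 array 2), and Synj1 at -0.080 and Inpp5a at -0.046 (without anti-CD3/CD28 array 3). Synj1 stayed below 0 against syngeneic cells in all of these, at -0.97 to -0.36 in allogeneic and -1.09 to -0.50 in anti-CD3/CD28 cells. Inpp5a did so too, at -1.38 to -0.48 in allogeneic and -1.72 to -0.79 in anti-CD3/CD28 cells, and Dnm2 in allogeneic minus anti-CD3/CD28 cells at -1.21 to -0.21.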
